A study of Zea mays with 6 samples.

Results

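The 2 genes described here, GRMZM2G131421 and GRMZM2G147399, are neighbours on maize chromosome 9 that share the *Arabidopsis* match AT5G25940, an early nodulin 93 (ENOD93) gene. They were selected on their higher FPKM in *ifc* ovaries, so their values in that contrast are given as a description, without a test. They are 2 of the 25368 rows of the deposited expression table, and 4 rows in all carry this match. The study sequenced RNA from ovaries with incompletely fused carpels (*ifc*) and from wild-type (WT) ovaries of the inbred line Yu-A474, collected before pollination from plants grown without stress, with 3 libraries per phenotype. The labels name the phenotypes as genotypes (IFC mutant and wild type), whereas the study took normal and *ifc* ovaries that stood side by side on the same ear. The groups are therefore ovary phenotypes of a shared plant genotype. Expression is given as FPKM, sequenced fragments scaled to the length of the transcript and to sequencing depth. The authors set the depth scale by quartile normalization, so the totals of the phenotypes need not be equal. Each phenotype has 1 value, which the authors computed from the pooled reads of its libraries. The deposited table holds no value per library, so no replicate error is given here, and it does not state how many fragments lie behind a value. Values per library and read totals that the study tabulates elsewhere were not used here. In such whole-ovary RNA, more cells of a type and more RNA per cell cannot be told apart.

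ENOD93 genes take their name from soybean, where the first of them was found as a gene switched on early in root nodules that house nitrogen-fixing bacteria. Cereals, which form no such nodules, also carry them. The proteins are small, pass through a membrane and are found in mitochondria, and in rice an ENOD93 gene responds to nitrogen supply. Early nodulin-like proteins and other nodulins share the word but belong to other protein families.

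Both genes were at an intermediate level in WT ovaries and at a high level in *ifc* ovaries, by the study's limits of 2 and 10 FPKM. GRMZM2G131421, described in the table as early nodulin 93, had 4.73 FPKM in WT and 35.7 FPKM in *ifc*. GRMZM2G147399, described only as an uncharacterized protein, had 3.49 FPKM in WT and 27.5 FPKM in *ifc*. Each was thus below the median row in WT (9.47 FPKM) and above it in *ifc* (9.40 FPKM). In WT, 33.2% of all rows had a lower FPKM than GRMZM2G131421 and 27.5% a lower FPKM than GRMZM2G147399. In *ifc*, these shares were 83.9% and 78.8%.

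The ratio of *ifc* to WT was nearly the same in the pair, at 7.56-fold for GRMZM2G131421 (log2 ratio 2.92) and 7.89-fold for GRMZM2G147399 (log2 ratio 2.98). The log2 ratios differed by 0.061, and without replicate values this difference cannot be set against an error. GRMZM2G131421 stood above GRMZM2G147399 in both phenotypes, 1.36 times in WT and 1.30 times in *ifc*. Neighbouring copies of a gene can share reads. How many fragments could be placed on either gene is not stated in the table, and the authors corrected for reads that map to several places. The summed FPKM of the pair, which depends less on how reads shared within the pair were divided, was 8.22 in WT and 63.3 in *ifc*, 7.70-fold higher.

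**Figure D1:**
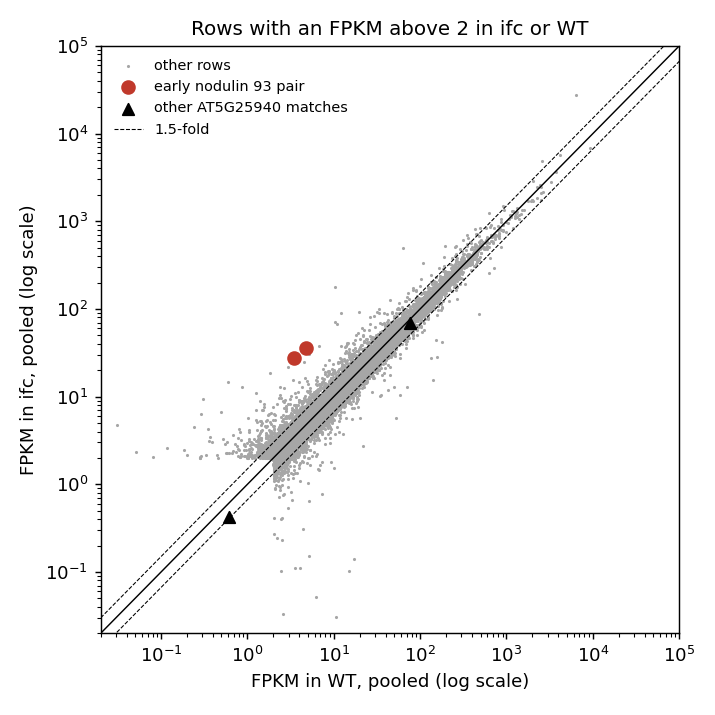
FPKM in *ifc* (vertical axis) against FPKM in WT (horizontal axis), both on log scales, for rows with an FPKM above 2 in *ifc* or WT, leaving out 10 such rows listed at 0 in either phenotype. The pair (large red points) lies above the dashed 1.5-fold line, at 27.5 and 35.7 FPKM in *ifc*, and the other rows matched to AT5G25940 (triangles, of which GRMZM2G014705 is below the FPKM minimum) lie under the diagonal and within 1.5-fold.

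Few rows of the table had a larger ratio. Among the 21093 rows with an FPKM above 2 in *ifc* or WT, GRMZM2G147399 took place 21 and GRMZM2G131421 place 24 by the ratio. A ratio above 1.5 was found in 871 of these rows (4.13%), and a ratio below 1/1.5 in 538 (2.55%). Since both members were chosen for this contrast, nothing is read from their standing against these shares. These counts follow the authors' own scaling. GRMZM2G070931 alone, at 0 in *ifc*, made up 55.6% of all FPKM in WT, and equal totals for both phenotypes would add 1.13 to every log2 ratio and give 20416 rows higher and 55 lower. With that row left out of the totals, the change would be -0.045. All directions below are on the authors' scaling, and equal totals would put the median of every gene group described here above 0. On the log2(FPKM + 1) scale, which gives less weight to rows with little signal in WT, GRMZM2G131421 took place 10 and GRMZM2G147399 place 12. Of 8279 rows at the intermediate level in WT (from 2 to 10 FPKM), 447 (5.40%) were at the high level in *ifc*, with a median ratio of 1.28. GRMZM2G147399 and GRMZM2G131421 had the 2 largest ratios of these 447 rows. Among the 7337 rows with at least 20 FPKM in *ifc*, they took places 4 and 6. In places by ratio, rows at 0 FPKM in WT, such as GRMZM5G873249 and zma-MIR159e, were counted before all others.

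The other 2 rows with the same *Arabidopsis* match did not share this pattern. GRMZM2G085750, on chromosome 4 (229708904 to 229712933, plus strand), is described as early nodulin-related and is annotated in the table to the mitochondrion and to the response to ethylene. It had 75.7 FPKM in WT and 69.9 FPKM in *ifc*, a ratio of 0.923. GRMZM2G014705, an uncharacterized gene on chromosome 6 (70732362 to 70733351, minus strand), had 0.614 FPKM in WT and 0.425 FPKM in *ifc*, under the FPKM minimum of 2 in both. The pair itself carries no GO term in the table. Neither row outside chromosome 9 passed 1.5-fold in either direction.

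The chromosome 4 gene gave most of the ENOD93 signal of WT ovaries, and it was joined by the chromosome 9 pair in *ifc*. The 4 rows summed to 84.6 FPKM in WT and 133.5 FPKM in *ifc*, 1.58-fold higher. The pair held 9.72% of this sum in WT and 47.4% in *ifc*. The level of GRMZM2G085750 remained above that of each member in both phenotypes. The order of the 4 levels was GRMZM2G085750, GRMZM2G131421, GRMZM2G147399 and GRMZM2G014705 in WT and in *ifc*, and with 1 pooled value per phenotype it cannot be said which neighbours in this order differ beyond replicate spread.

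**Figure D2:**
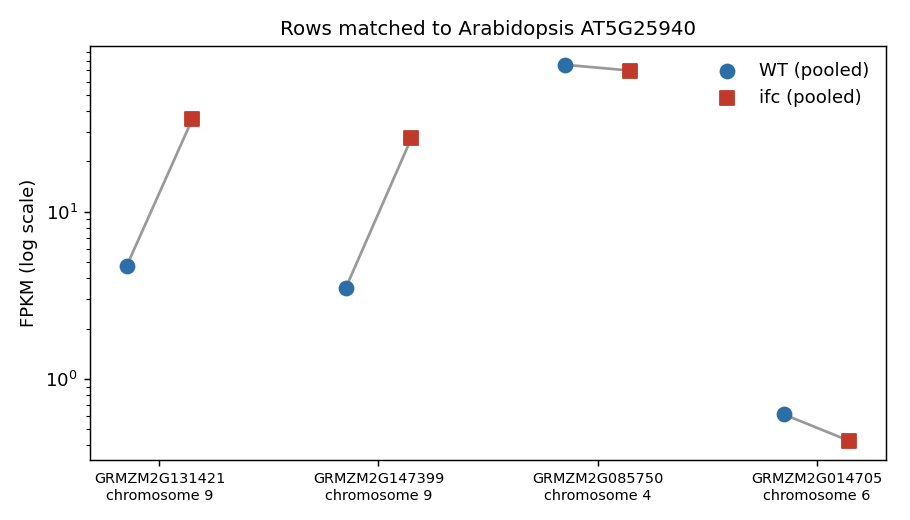
FPKM on a log axis in WT (circles) and *ifc* (squares), 1 pooled value per phenotype and gene, for the 4 rows matched to AT5G25940. The lines of GRMZM2G131421 (4.73 to 35.7 FPKM) and GRMZM2G147399 (3.49 to 27.5 FPKM) climb steeply, that of GRMZM2G085750 is nearly flat (75.7 to 69.9 FPKM), and that of GRMZM2G014705 slopes down below 1 FPKM.

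The pair stands head to head. In B73 RefGen_v3, GRMZM2G147399 lies at 20677132 to 20678372 of chromosome 9 on the minus strand, and GRMZM2G131421 at 20705210 to 20706472 on the plus strand. The loci span 1241 and 1263 bases and 26837 bases lie between them, upstream of both. No row of the table falls into this stretch. RefSeq lists both as protein-coding genes (LOC100193182 and LOC103638099) in the later assembly Zm-B73-REFERENCE-NAM-5.0. There it places 2 genes between them, the protein-coding LOC109939243 and the long non-coding RNA LOC103638098. No identifier links these to the table, and they were not analysed here.

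The expressed genes nearest to the pair had ratios close to 1. Within 100 kb of a member there were 5 other rows, 3 of them with an FPKM above 2, and none passed 1.5-fold in either direction. With 4.13% of all rows higher and 2.55% lower past it, a count of 0 among 3 rows is near the background, and nothing is read from it. The nearest on the side of GRMZM2G131421, GRMZM2G404897, encodes a zinc finger protein and had 24.9 FPKM in WT and 24.5 FPKM in *ifc*, at 40533 bases. On the side of GRMZM2G147399, GRMZM5G899300, the match of the spindle checkpoint gene BUB3.1, had 33.8 FPKM in WT and 31.2 FPKM in *ifc*, at 62410 bases. GRMZM5G829544, the match of the thioesterase gene FATB, whose product releases fatty acids in plastids, had 34.1 and 39.3 FPKM, at 77805 bases. These 3 genes had log2 ratios between -0.11 and 0.20. GRMZM2G391473, a lectin receptor-like kinase gene that RefSeq lists as a transcribed pseudogene, had 0.751 FPKM in WT and 0.888 FPKM in *ifc*. GRMZM2G404977, an uncharacterized gene, had 1.15 and 0.879 FPKM.

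Within 500 kb there were 22 other rows, 18 of them with an FPKM above 2. A row of GRMZM2G106276, a homeobox-leucine zipper gene matched to HAT14, was the 1 row higher past 1.5-fold (1.90 FPKM in WT and 3.39 FPKM in *ifc*). A row of GRMZM5G839794 was the 1 row lower past it (log2 ratio -0.88). Both genes have a second row in the table and are named because their values were seen. Over the whole of chromosome 9, 66 of 1568 rows with an FPKM above 2 were higher past 1.5-fold (4.21%, both members included), beside 4.13% over all chromosomes. By ratio the pair took places 2 and 3 of these 1568 rows, after GRMZM2G161905, a glutathione transferase gene with 0.238 FPKM in WT and 4.52 FPKM in *ifc* that is named for this place.

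**Figure D3:**
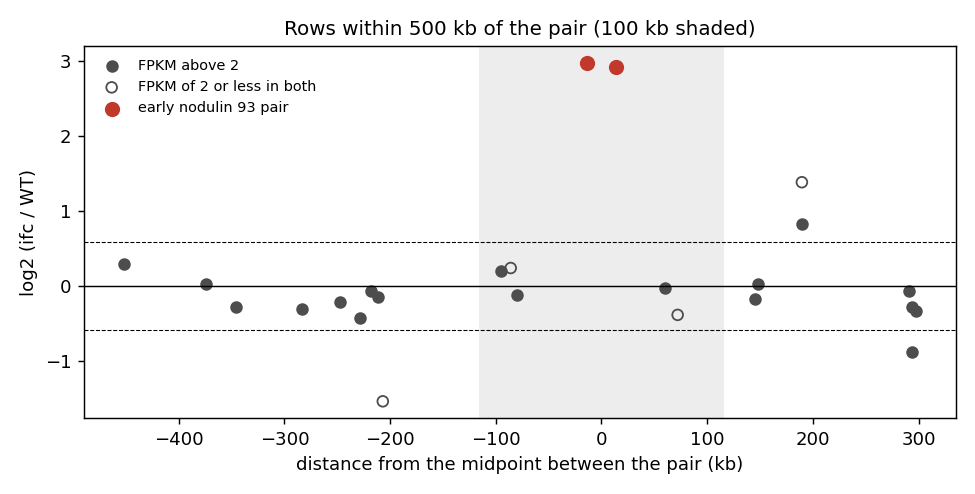
Log2 ratio of *ifc* to WT (vertical axis) for rows within 500 kb of the pair on chromosome 9, by distance in kb from the midpoint between the 2 genes (horizontal axis). Filled points have an FPKM above 2, open points do not, dashed lines mark 1.5-fold, and the shaded 100 kb on either side holds no point beyond them but the pair, at 2.92 and 2.98.

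Neighbours with the same *Arabidopsis* match were seldom both past the fold. Across the genome, 540 pairs of genes with an FPKM above 2, formed by 908 genes, shared a match and lay within 100 kb of each other on 1 chromosome. Both members of a pair were above 1.5-fold in *ifc* in 4 of the 540 (0.741%), the ENOD93 pair being 1 of them by its choice. In 45 pairs 1 member passed and the other did not, in 491 neither was higher past 1.5-fold, and no pair had 1 member past 1.5-fold upward and the other past it downward. Among the 491 was 1 pair with both genes lower past 1.5-fold, GRMZM2G348125 and GRMZM2G410766 on chromosome 7, each with a log2 ratio of -0.67. Genes of 1 family cluster, so these pairs overlap and are not independent. Some pairs lie on 1 strand with few bases between them, such as GRMZM2G020142 and GRMZM2G113928 with 100. Whether such pairs are separate genes or parts of 1 gene was not tested. The 540 pairs are therefore not a clean reference for neighbouring gene copies. The median absolute difference of the log2 ratios within a pair was 0.16, beside 0.061 in the ENOD93 pair. Over the 4 pairs with both genes higher past 1.5-fold, the ENOD93 pair included, this median was 0.097. GRMZM2G357371 and GRMZM2G461279 among them differed by only 0.011, so the ENOD93 value is not particular to the pair. The median was 0.23 for 14110 pairs of adjacent genes within 100 kb with different matches or none. In 40 of these pairs (0.283%) both genes were above 1.5-fold.

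Chosen for its high ratios, the ENOD93 pair came first among the 4 pairs by its smaller log2 ratio (2.92). Next was a pair of JAZ1 matches on chromosome 1, repressors of jasmonate signalling, with log2 ratios of 1.67 for GRMZM5G838098 and 0.96 for GRMZM2G445634. A pair of histone H4 genes on chromosome 7 had 0.85 for GRMZM2G072855 and 0.98 for GRMZM2G073275. A pair of genes annotated with strictosidine synthase activity, also on chromosome 7, had 0.81 for GRMZM2G357371 and 0.82 for GRMZM2G461279. Each of these 3 pairs lies on 1 strand with 7412 to 14719 bases between its genes, whereas the ENOD93 genes are on opposite strands, as are 87 of the 540 pairs. With a fold above 2, the ENOD93 pair was the 1 pair that passed. Given how the pair was chosen, nothing is read from its place or from this count.

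**Figure D4:**
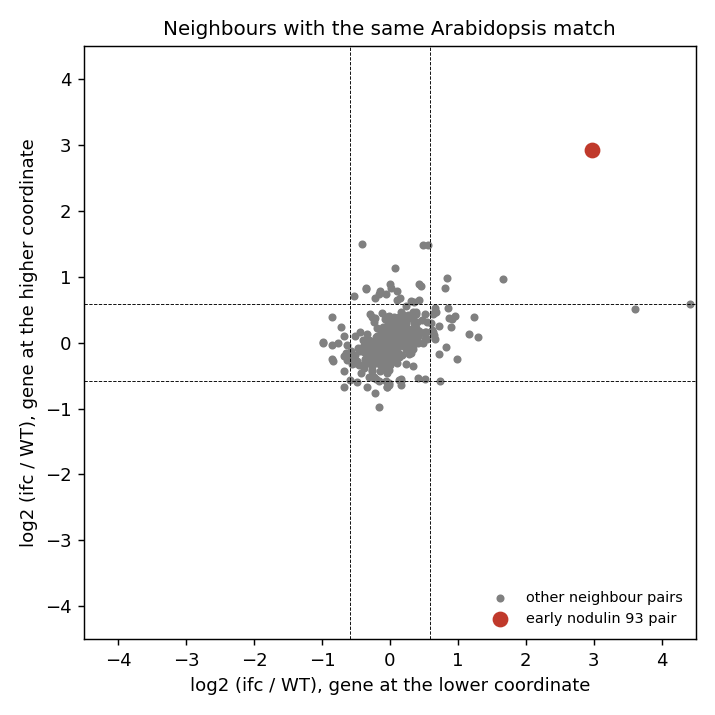
Log2 ratio of *ifc* to WT of the gene at the higher coordinate (vertical axis) against that of the gene at the lower coordinate (horizontal axis) for pairs within 100 kb that share an *Arabidopsis* match. Dashed lines mark 1.5-fold, and 4 of the 540 pairs lie in the upper right corner beyond both lines. The ENOD93 pair (large red point, 2.98 and 2.92), chosen for its high ratios, is far from the other 3.

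The genes whose 2 levels were most like those of the pair had other *Arabidopsis* matches or none. Likeness was the distance in the plane of log2(FPKM + 1) in WT and *ifc* from the midpoint of the pair, from which each member lay 0.25. With 2 pooled values per gene, this says only that levels were alike in 2 conditions. The nearest was GRMZM2G116614, another JAZ1 match, with 5.12 FPKM in WT and 30.4 FPKM in *ifc* (distance 0.28). Then came GRMZM2G044194, which encodes a precursor of the growth peptide phytosulfokine, with 4.46 and 24.6 FPKM (distance 0.36). The extracellular ribonuclease gene GRMZM2G158394 had 2.97 and 21.6 FPKM (distance 0.63). The acyl-desaturase gene GRMZM2G316362, which acts in fatty acid metabolism, had 6.80 and 37.5 FPKM (distance 0.67). The uncharacterized GRMZM2G701612 had 4.64 and 16.4 FPKM (distance 0.91).

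Genes of nitrogen uptake and assimilation, listed because an ENOD93 gene of rice responds to nitrogen, had ratios on both sides of 1. Of 24 *Arabidopsis* genes listed, 17 had a row, which gave 30 rows and 23 with an FPKM above 2. Of these, 2 were higher past 1.5-fold and 0 lower, beside 4.13% and 2.55% of all rows, so these small counts do not set the list apart. Over the list, 11 rows were above and 12 below a ratio of 1. Their median log2 ratio was -0.0042, beside -0.023 for all 21093 rows. Both rows past 1.5-fold are matches of GLN1;1, a cytosolic glutamine synthetase, the enzyme that fixes ammonium into glutamine. GRMZM2G050514 had 10.3 FPKM in WT and 71.2 FPKM in *ifc*, a log2 ratio of 2.79 that lies close to that of the ENOD93 genes. GRMZM2G036464 had 19.4 and 29.3 FPKM, just past the fold. Another GLN1;1 match, GRMZM2G024104, had 192 and 219 FPKM.

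Nuclear genes of cytochrome c oxidase, cytochrome c and the alternative oxidase, listed because ENOD93 proteins are found in mitochondria, also had ratios on both sides of 1. Of 23 *Arabidopsis* genes listed, 13 had a row, and 18 of their 21 rows had an FPKM above 2. None of the 18 passed 1.5-fold in either direction, a count near the background of 4.13% higher and 2.55% lower from which nothing is read. The log2 ratios ran from -0.49 to 0.25 with a median of -0.0072. COX6a (GRMZM2G177432), an oxidase subunit, had 343 FPKM in WT and 342 FPKM in *ifc*. An AOX1A match (AC233960.1_FG002), whose product passes electrons to oxygen without the cytochrome path, had 24.0 and 19.8 FPKM.

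Other rows carry the word nodulin in their description. Apart from ENOD93, 16 rows were so described, and 12 of them had an FPKM above 2. None of the 12 passed 1.5-fold in either direction, which is likewise near the 4.13% and 2.55% of all rows. Their log2 ratios ran from -0.25 to 0.17 with a median of -0.097. GRMZM2G077769, early nodulin-like protein 8, had 30.7 FPKM in WT and 32.1 FPKM in *ifc*. GRMZM2G092338, early nodulin-like protein 1, had 0.913 and 1.86 FPKM and so was under the FPKM minimum. Rows described without the word are not in this group. An example is GRMZM2G368827, described as MTN3, with 10.3 FPKM in WT and 178 FPKM in *ifc*.

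**Figure D5:**
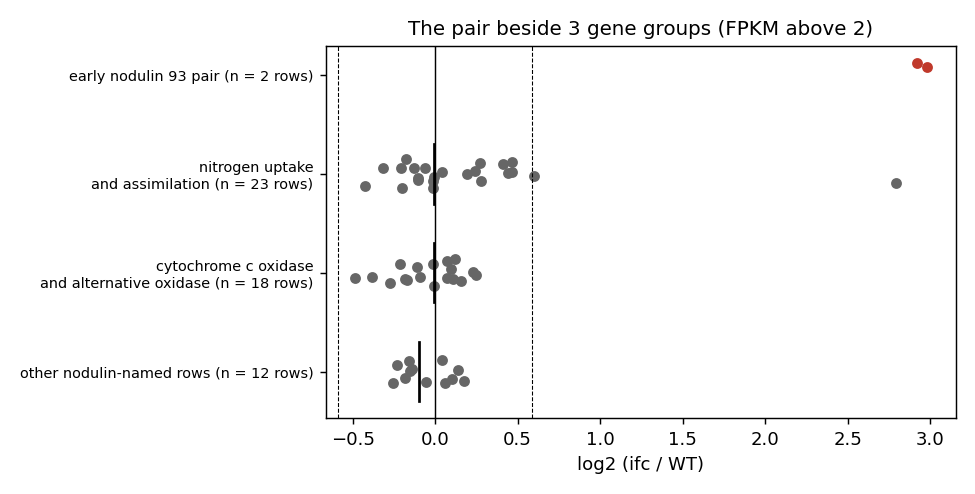
Log2 ratio of *ifc* to WT for the ENOD93 pair and for the rows with an FPKM above 2 of 3 gene groups. Each point is a row, black bars mark the median of a group and dashed lines 1.5-fold, and 1 glutamine synthetase gene (2.79) lies beside the pair while the other points run from -0.49 to 0.60.

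Matches of carpel and ovule genes were present in both phenotypes, and on the authors' scaling all 7 had a lower FPKM in *ifc*. These 7 rows, matched to AGAMOUS, CRABS CLAW and SEEDSTICK, had 4.71 to 197 FPKM, with log2 ratios from -0.58 to -0.02. The gene SHP1 was listed with them, but no row was matched to it. The median log2 ratio of all 21093 rows was -0.023, so a value below 0 was common. The AGAMOUS match GRMZM2G052890, at -0.017, stood above this median. None of the 7 passed 1.5-fold, a count near the background of 4.13% higher and 2.55% lower from which nothing is read. Equal totals would place all 7 above 0. With the row of GRMZM2G070931 left out of the totals, each log2 ratio would move by -0.045 instead, and all 7 would stay below 0. The CRABS CLAW matches, of a gene that in *Arabidopsis* acts in carpel growth and fusion, had the lowest ratios, with 164 FPKM in WT and 119 FPKM in *ifc* for GRMZM2G088309 and 70.9 and 47.5 FPKM for GRMZM2G102218. Whether a different make-up of the ovaries has a part in the values of the pair was not tested. No row was matched to the leaf genes LHCB1 or RBCS1A listed beside them, so a share of green tissue was not assessed by them.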

How the data were processed

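RNA-seq of 3 *ifc* and 3 WT libraries was deposited as 1 table of FPKM. Per the paper's methods, the authors removed ribosomal RNA, sequenced strand-specific paired ends, aligned them with TopHat2 to B73 RefGen_v3, kept reads in exons and pooled them per phenotype. From these reads the authors computed the deposited FPKM in Cufflinks and Cuffdiff, under quartile normalization and correcting for fragment bias and for reads mapped to several places. Quartile normalization sets the scale of every ratio, and the correction for such reads divides signal between similar copies. The deposited table also holds 4 columns of the authors' own comparison (fold change, its log2, p-value and q-value), which were not used. This table has no values per library and no counts, so no test or error is given from it. Values per library and read totals in the supplement of the paper were not used here.

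Ratios were computed from the pooled FPKM. A row was called past 1.5-fold where an FPKM was also above 2 in *ifc* or WT, which are the study's criteria without its p-value. All 25368 rows were used, with 1 row per gene (that with the highest mean FPKM) for neighbour pairs. Distances are between locus bounds. The text names the pair, rows with its match or within 100 kb, the 5 rows nearest in log2(FPKM + 1), and up to 6 members of a list past the fold. Other genes were named as examples after their values were seen. The members and lists were chosen with earlier results of these data known. RefSeq names (Zm-B73-REFERENCE-NAM-5.0) were matched for 15940 of 24453 gene identifiers. The fold calls and the search for neighbour pairs were run on simulated data with planted changes and little noise. That run checks the code and says nothing on the error of these data. Python 3.11.15, numpy 2.4.6, pandas 2.3.3 and matplotlib 3.10.9 were used.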

Additional observations from a re-analysis of the deposited data

How the results depend on the processing

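Both members stayed above 1.5-fold in *ifc* under all 5 alternatives for each. With log2(FPKM + 1) the log2 ratios were 2.68 for GRMZM2G131421 and 2.67 for GRMZM2G147399. With equal FPKM totals for *ifc* and WT, which adds 1.13 to each log2 ratio, they were 4.04 and 4.10, the counts of all rows past 1.5-fold were 20416 higher and 55 lower, and the medians of the nitrogen, oxidase and nodulin-named rows were 1.12, 1.12 and 1.03. With the row of GRMZM2G070931 left out of the totals, the log2 ratios moved by -0.045 instead. Main counts of 871 higher and 538 lower rows became 1878 and 869 with no FPKM minimum, 376 and 202 with an FPKM above 10, and 302 and 129 with a fold above 2. The nitrogen median was 0.12 with no minimum. A window of 500 kb gave 1 row higher past 1.5-fold near the pair, and a fold above 2 left 1 of the neighbour pairs. Of 41 alternatives, the other 23 moved a log2 value by less than 0.1 or a count by less than 1.5 times. No paired analysis was possible because the table gives 1 pooled value per phenotype and no library could be left out. The table used gives no replicate error and no counts, which limits each value.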
